A study of Mus musculus with 15 samples.

Results

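The 9 genes described here, Rgs2, Rgs3, Rgs4, Rgs5, Rgs10, Rgs12, Rgs16, Rgs17 and Rgs19, encode regulators of G protein signalling (RGS proteins). They were listed by symbol, and the list was selected on measured values of these arrays, since earlier results showed Rgs2 among the genes that differed. Their levels and differences are therefore given as a description, with no p-value. Where the text says that one of the 9 passed the threshold of the fit across all genes, this too is a description, from which nothing is read. The platform annotation gave these symbols to 26 of the 45101 probe sets on the array, and the 9 genes stand among 18193 that had a probe set with 1 symbol.

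RNA of NIH3T3 cells, a mouse fibroblast line that grows without limit in culture, was hybridised to 15 Affymetrix arrays. All cells carried the retroviral vector pBabe-puro, so that the control cells shared the transduction and differed in lacking an insert. The Runx1, Runx2 and Runx3 lines each expressed the mouse gene of that name without a switch (2 arrays each). The human RUNX1 line was profiled on 1 array. A further line carried RUNX1-ER, which holds human RUNX1 in a form that a ligand switches on, profiled after induction with 4-hydroxytamoxifen (4-OHT) and uninduced (2 arrays each). Empty-vector cells with 4-OHT and without it gave 2 arrays each. Runx proteins are DNA-binding transcription factors, and the series' title asks about their programme in cell adhesion and survival. Cultures reached confluence over 7 days. They had 0.2% ethanol alone or with 4-OHT, at a labelled concentration of 0.1 mM, for 24 h. Which of the 2 treatments each constitutive line had is not stated, nor whether a line was a clone or a mixed population. The titles call the arrays biological replicates without naming cultures or transductions. P-values therefore measure only the spread between these arrays, which may be technical.

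RGS proteins bind the active, GTP-bound alpha subunit of a heterotrimeric G protein and speed its GTP hydrolysis, which ends the signal that a receptor started. The small proteins Rgs2, Rgs4, Rgs5 and Rgs16, together with the longer Rgs3, form one branch of the family. Rgs2 is known for its preference for Gq-type alpha subunits and so for damping calcium signals, and it is an immediate-early gene in many cells. Rgs10 and Rgs12 belong to a second branch, and Rgs17 and Rgs19 to one marked by a string of cysteines near the amino end. In the mouse annotation (GRCm38.p6) 4 of the 9 genes lie on chromosome 1, with Rgs2 at chr1:143999338-144004149, Rgs16 at chr1:153740353-153745468, Rgs5 at chr1:169655501-169695813 and Rgs4 at chr1:169741477-169747642. Rgs3 lies at chr4:62559835-62703019, Rgs10 at chr7:128373621-128419506 and Rgs19 at chr2:181688419-181694537.

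The sequences upstream of Rgs2 and Rgs3 are shown. Over the mouse Runx lines, which expressed a DNA-binding factor, their brightest probe sets had the largest differences from vector of the 9 genes. RefSeq promoter entries (GRCm38.p6) were found for all 9 genes, 13 promoters in all, and the 250 bases before each start were searched on both strands for 3 motifs. The Runx core was searched as TGTGGT or TGCGGT, and the core of the cAMP response element as TGACGT. The capitals mark a match to TGACGT, which reads on the minus strand of the printed sequence, 186 to 181 bases before the start of Rgs2.
Rgs2 (chr1:144004150-144004399, minus strand): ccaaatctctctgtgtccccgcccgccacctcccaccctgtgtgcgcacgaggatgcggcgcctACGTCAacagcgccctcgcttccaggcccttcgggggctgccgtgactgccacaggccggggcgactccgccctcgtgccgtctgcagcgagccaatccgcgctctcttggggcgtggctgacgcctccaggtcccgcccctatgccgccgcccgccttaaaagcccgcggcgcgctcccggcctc
Rgs3, first start (chr4:62559597-62559846, plus strand): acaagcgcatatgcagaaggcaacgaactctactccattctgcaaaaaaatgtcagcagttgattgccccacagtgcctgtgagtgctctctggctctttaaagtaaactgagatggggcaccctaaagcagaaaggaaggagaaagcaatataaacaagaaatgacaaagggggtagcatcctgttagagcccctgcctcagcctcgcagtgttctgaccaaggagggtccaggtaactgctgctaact
Rgs3, second start (chr4:62619422-62619671, plus strand): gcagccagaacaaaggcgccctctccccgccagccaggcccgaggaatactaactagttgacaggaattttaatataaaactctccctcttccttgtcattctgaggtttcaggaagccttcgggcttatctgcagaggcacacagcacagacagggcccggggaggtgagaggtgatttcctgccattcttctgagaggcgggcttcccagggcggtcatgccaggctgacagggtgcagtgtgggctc
TGACGT was found in 1 of the 13 promoters of these genes, against 6.47% of all 32851 promoters in the table. Either Runx core was found in 0 of the 13, against 18.6% of all promoters. A match is not a shown binding site, and the absence of a match says only that these letters are not in this window.

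Rgs2 was lower in every Runx line than in the vector cells. On its brightest probe set (1419247_at), the Runx1 line had 7.43 and 7.31 log2 units, against 8.91 and 8.98 in vector cells. The Runx2 line had 7.26 and 7.09 on the same probe set, and the Runx3 line had 6.43 and 6.48. No array of the 3 mouse lines reached the lowest vector array. These are bulk RNA values, in which fewer cells with the transcript and less transcript per cell cannot be told apart. The mean difference from vector was −1.57 (SE 0.13) in the Runx1 line, 2.98-fold lower, and −1.77 (SE 0.13) in the Runx2 line, 3.41-fold lower. In the Runx3 line it was −2.49 (SE 0.13), 5.61-fold lower. The 3 lines are set against the same 2 vector arrays, so their differences are not independent of each other. The single human RUNX1 array had 6.64, which was 2.30 log2 units below the vector mean (difference −2.30) and below both Runx1 arrays. It has no replicate and so no error.

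Rgs2 was also lower after induction of RUNX1-ER. The induced cells had 7.38 and 7.24 on 1419247_at, against 8.34 and 8.22 in the uninduced cells, a difference of −0.97 (SE 0.13), 1.95-fold lower. In vector cells, arrays with 4-OHT had 9.14 and 8.73, against 8.91 and 8.98 without it, and the groups overlapped. That difference was −0.01 (SE 0.13). The induction beyond the 4-OHT difference, which is the interaction term, was −0.96 (SE 0.18). It was −0.75 without vector 4-OHT replicate 1 and −1.16 without vector 4-OHT replicate 2, whose arrays stood farther apart than those of any other group. The uninduced cells were themselves below vector cells by a difference of −0.67 (SE 0.13), with no overlap of arrays. Against vector cells with 4-OHT, the induced cells differed by −1.62 (SE 0.13), 3.08-fold lower.

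**Figure D1:**
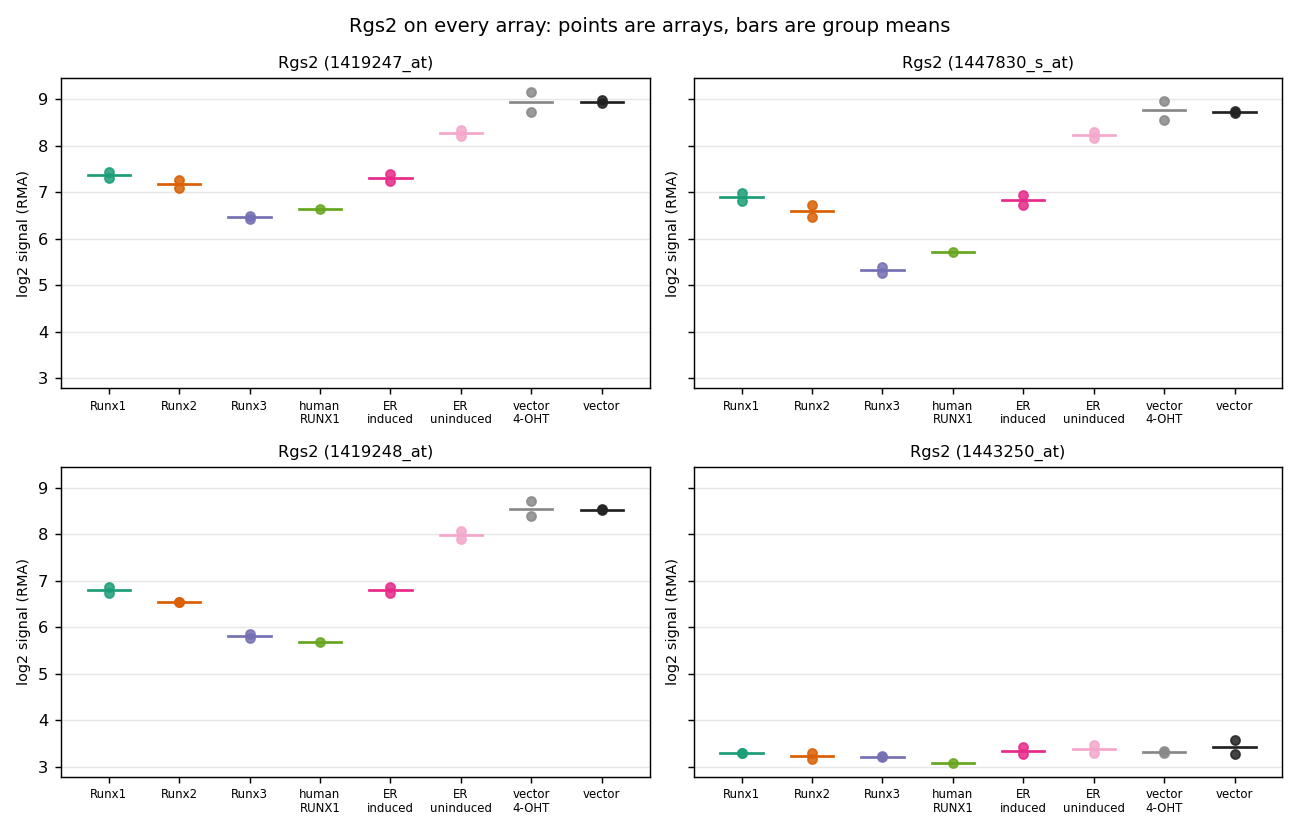
Log2 signal (RMA) of the 4 Rgs2 probe sets on each of the 15 arrays, by group; points are arrays and bars are group means. On the 3 brighter probe sets the Runx3 and human RUNX1 arrays lie lowest and the arrays of both vector groups highest, and 1443250_at stays between 3.10 and 3.58 on all arrays.

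From low to high, the group means of 1419247_at were 6.46 in Runx3, 6.64 in human RUNX1, 7.17 in Runx2, 7.31 in induced RUNX1-ER and 7.37 in Runx1 cells. Uninduced RUNX1-ER followed with 8.28, then vector with 4-OHT with 8.93 and vector with 8.94. Neighbours whose arrays overlapped were Runx2 and induced RUNX1-ER, induced RUNX1-ER and Runx1, and the 2 vector groups. The Runx3 line was lower than the Runx1 line by a difference of −0.91 (SE 0.13) and lower than the Runx2 line by −0.72 (SE 0.13). The Runx2 line differed from the Runx1 line by −0.20 (SE 0.13), which did not pass the threshold of the fit, though the arrays did not overlap. The SD between the 2 arrays of a group ran from 0.04 in Runx3 cells to 0.29 in vector cells with 4-OHT.

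The other Rgs2 probe sets share the gene and the arrays and are no further replicates. On 1447830_s_at the Runx3 line had 5.39 and 5.27, against 8.70 and 8.75 in vector cells, a difference of −3.40 (SE 0.14) and 10.5-fold lower. The same probe set gave −1.83 (SE 0.14) for the Runx1 line, −2.14 (SE 0.14) for the Runx2 line and −1.39 (SE 0.14) for the induction. On 1419248_at the differences were −1.73, −1.99 and −2.72 for the Runx1, Runx2 and Runx3 lines and −1.18 for the induction (SE 0.12 each). The 3 probe sets thus gave the same order of the 3 lines and differed in size, most for the Runx3 line. Across the 15 arrays their Pearson correlations ran from 0.990 to 0.992, as a description. The fourth probe set, 1443250_at, had between 3.10 and 3.58 log2 units on all arrays, near the bottom of the scale, and its difference in the Runx3 line was −0.21 (SE 0.11). RMA, the method behind these values, shrinks differences of dim probe sets, so folds that end near the bottom are understated.

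Rgs3, which can act on Gi and Gq alpha subunits and is made in several isoforms, was lower in the Runx3 line. On 1425296_a_at the Runx3 arrays had 6.35 and 6.48 log2 units, against 6.94 and 7.19 in vector cells. The Runx1 arrays had 6.94 and 6.99 and the Runx2 arrays 7.02 and 6.90, close to the lower vector array. The difference of Runx3 from vector was −0.65 (SE 0.12), 1.56-fold lower, and from both the Runx1 and the Runx2 line −0.54 (SE 0.12). The human RUNX1 array had 6.65, between the Runx3 arrays and all others. The second probe set, 1425701_a_at, had 5.69 and 4.96 in Runx3 cells, against 6.28 and 6.14 in vector cells, a difference of −0.89 (SE 0.18). Its 2 Runx3 arrays were thus farther apart than the arrays of any other group on that probe set. The induction of RUNX1-ER left Rgs3 at 6.89 and 6.96 on 1425296_a_at, against 7.13 and 6.87 in uninduced cells, and these overlapped. The other 2 probe sets of Rgs3 were dim, with differences of 0.27 (SE 0.15) and −0.01 (SE 0.11) between Runx3 and vector cells. The difference of Runx3 from vector was −0.52 and no longer past the threshold without vector replicate 2, and −0.77 without vector replicate 1. As the mean of all 4 probe sets it was −0.32, also not past the threshold.

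Rgs10, known in microglia and other immune cells for limiting inflammatory signalling, stood apart in induced RUNX1-ER cells. They had 6.89 and 6.95 log2 units on its only probe set (1416882_at), against 6.59 and 6.49 in uninduced cells. The difference was 0.38 (SE 0.10), with no overlap of arrays. Vector cells with 4-OHT had 6.51 and 6.61, against 6.72 and 6.51 without it, and the induction beyond 4-OHT was 0.44 (SE 0.14). The Runx1, Runx2 and Runx3 arrays lay between 6.52 and 6.66, within the range of the vector arrays. Neither the induction nor that interaction passed the threshold of the fit. The induction passed it when dim probe sets were left out and when the probe sets of each gene were averaged.

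Rgs19, also called GAIP and known to act on Gi-type alpha subunits, was measured well above the bottom of the scale and differed little. Its brightest probe set, 1417786_a_at, had 6.83 to 7.30 log2 units over all arrays, with 7.21 and 7.27 in Runx3 cells, against 7.28 and 7.11 in vector cells. Over the 11 comparisons its differences ran from −0.25 for Runx2 against vector to 0.29, and none passed the threshold. The second probe set, 1434940_x_at, had 6.87 and 5.99 on the 2 arrays of vector cells with 4-OHT, and no group mean there differed from vector by more than that spread. The human RUNX1 array was the lowest of all arrays on 1417786_a_at, at 6.83.

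**Figure D2:**
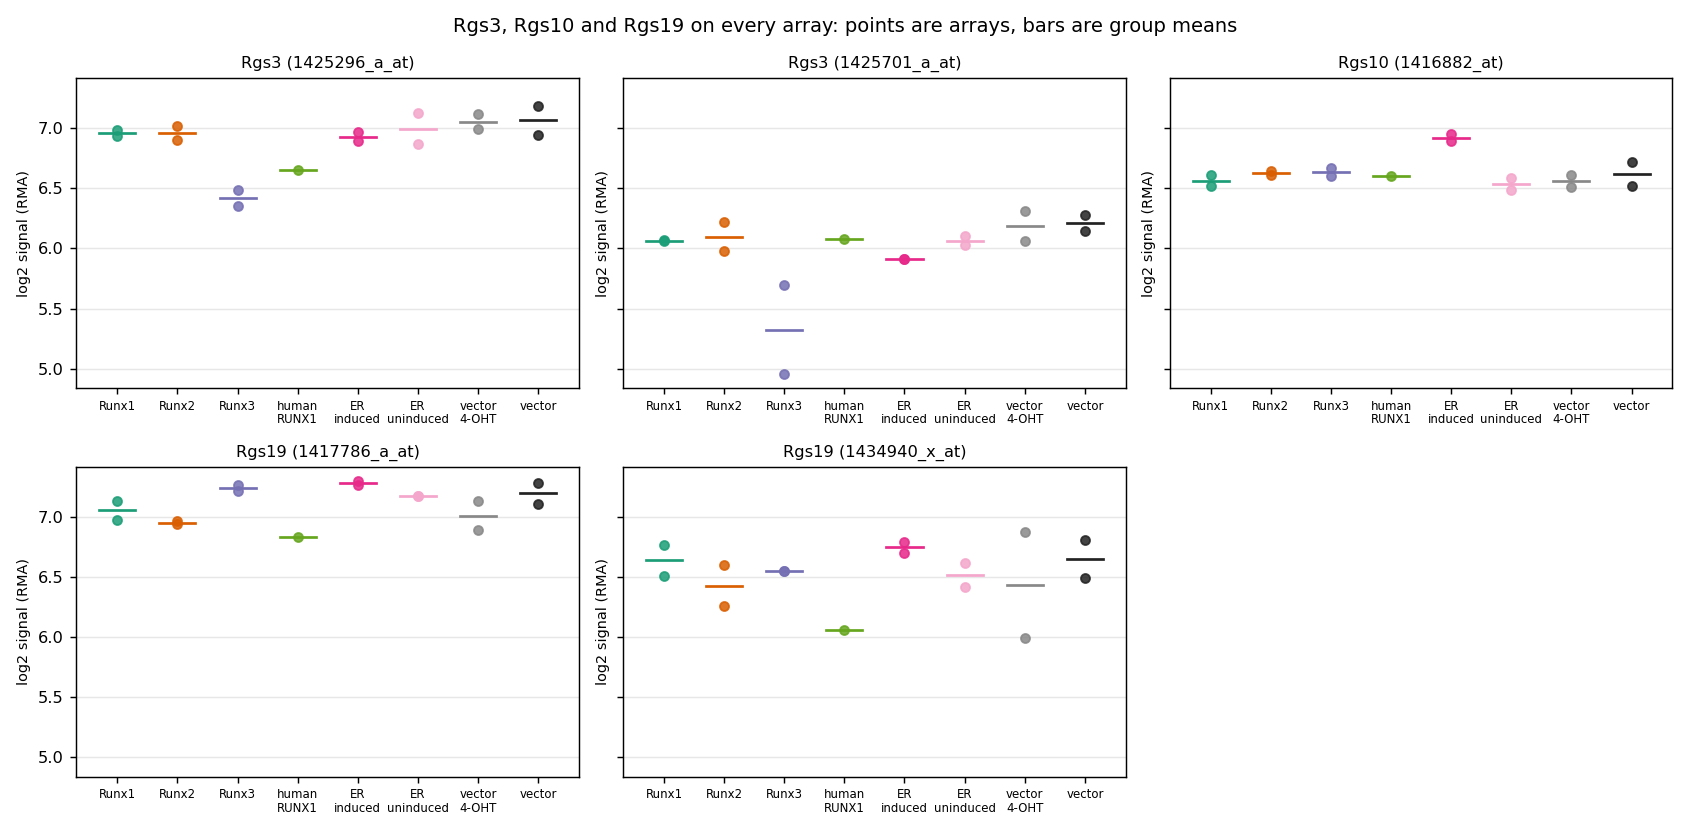
Log2 signal (RMA) of the brighter probe sets of Rgs3, Rgs10 and Rgs19 on each of the 15 arrays, by group; points are arrays and bars are group means. The Runx3 arrays are lowest in both Rgs3 panels, the induced RUNX1-ER arrays are highest for Rgs10 (6.89 and 6.95), and the Rgs19 groups lie close together.

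Rgs4, Rgs5, Rgs12, Rgs16 and Rgs17 were dim, meaning that the brightest probe set of each averaged at most 5 log2 units, whereas 44.2% of all genes were above that. The files hold no detection calls, so a dim gene cannot be called absent. The 3 probe sets of Rgs4, best known from neurons, had 2.85 to 3.91 log2 units, and the 4 of Rgs5, a pericyte marker, had 2.75 to 3.72. The 3 of Rgs12, which also carries Ras-binding domains, had 3.01 to 4.69. Rgs16, an inducible member of the Rgs2 branch, had 2.89 to 4.43 over its 3 probe sets, and Rgs17, a relative of Rgs19, had 2.94 to 3.83 over its 2. None of the 15 probe sets of these 5 genes passed the threshold in any of the 11 comparisons. The largest difference of a brightest probe set was 0.49 (SE 0.23), in Rgs12 for the induction beyond 4-OHT. Its induced arrays had 4.69 and 4.07, and one of them lay inside the range of the other groups.

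**Figure D3:**
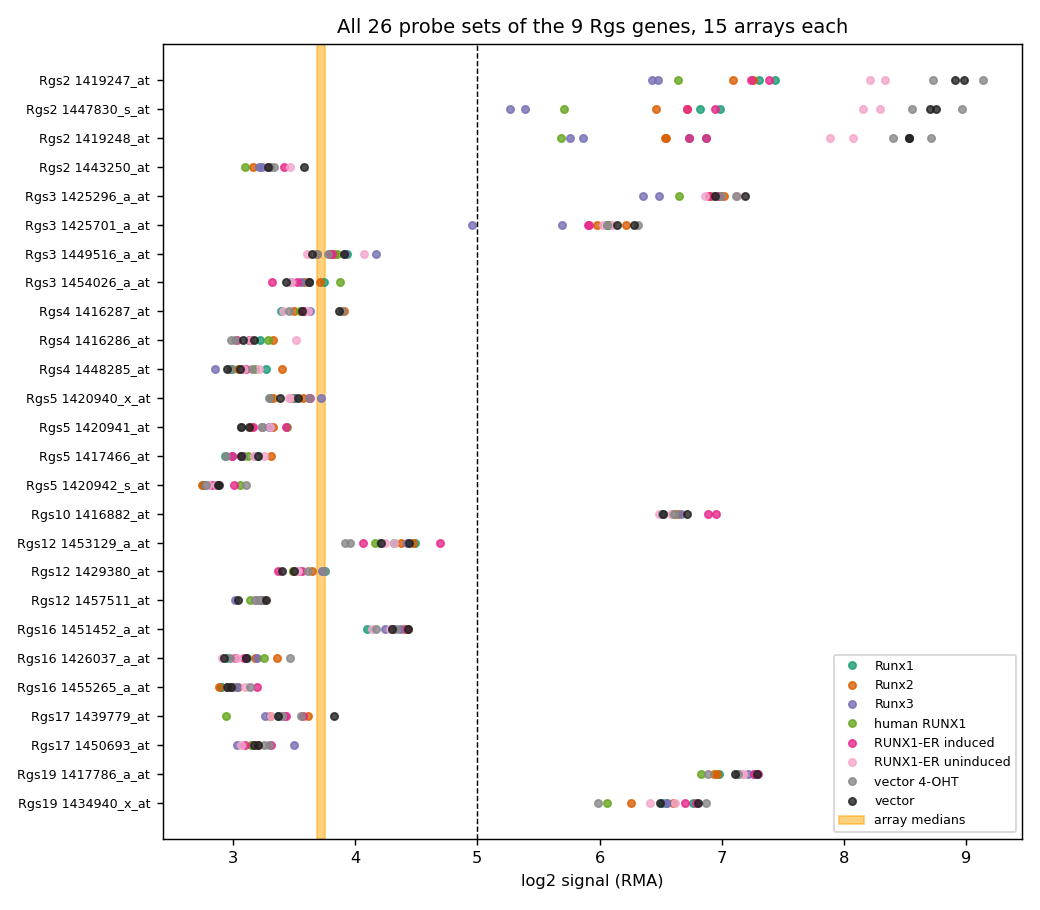
Log2 signal (RMA) of all 26 probe sets of the 9 genes, 1 row each, with 1 point per array coloured by group; the dashed line marks 5 log2 units and the shaded band the range of array medians, 3.69 to 3.75. Of these probe sets 8, from Rgs2, Rgs3, Rgs10 and Rgs19, average above the line and the other 18 below it.

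Calls of the 9 genes were counted by the brightest probe set in the same fit (limma, Benjamini-Hochberg adjusted over all probe sets, threshold 0.05). Since the list was selected on these arrays, the counts are given beside the share of all genes called and nothing is read from them. In the Runx1 line 1 of the 9, Rgs2, was called, against 1.42% of all 18193 genes. In the Runx2 line it was again Rgs2 alone (background 2.13%). In the Runx3 line Rgs2 and Rgs3 were called (7.83%). Rgs2 alone was called for RUNX1-ER induction (1.41%), for induction beyond 4-OHT (0.478%) and for induced RUNX1-ER against vector with 4-OHT (2.92%). Of the comparisons between lines, Runx3 against Runx1 (5.25%) and Runx3 against Runx2 (2.64%) both called Rgs2 and Rgs3, and Runx2 against Runx1 (1.18%) called none of the 9. None of the 9 was called for uninduced RUNX1-ER against vector (0.0165%), although the arrays of Rgs2 did not overlap there. For 4-OHT in vector cells limma called 0 of all genes (0%), with 1154 at an unadjusted p under 0.05, and none of the 9. None of the 9 was called higher in any comparison of this fit. Among all 18193 genes, 594 were called higher in the Runx3 line and 145 for induction. Rgs10 was called higher for induction without dim probe sets and with averaged probe sets. The median difference of the 9 genes in the Runx3 line was −0.06, against 0.00 over all genes.

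**Figure D4:**
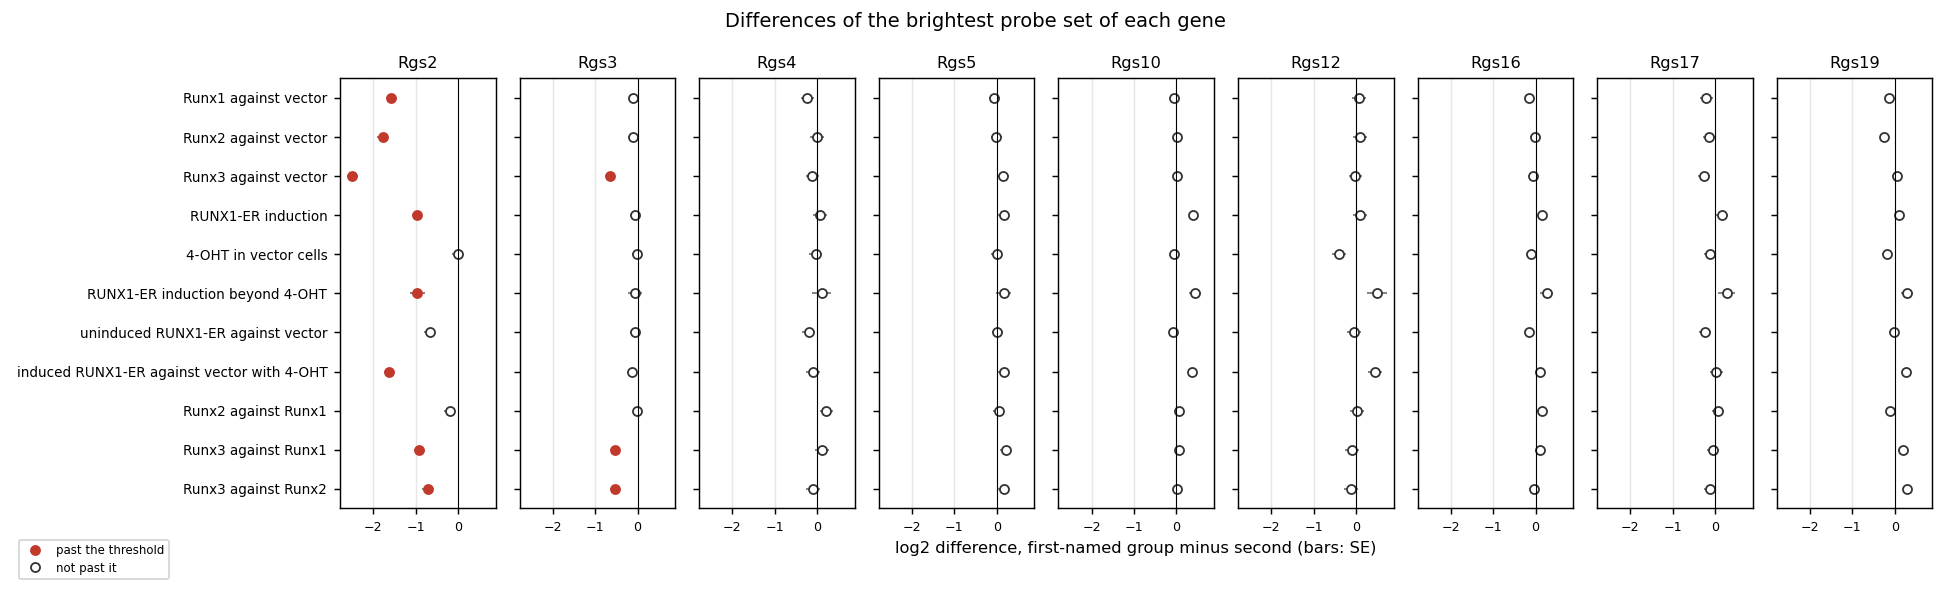
Log2 difference of the brightest probe set of each of the 9 genes in the 11 comparisons, first-named group minus second, with bars of 1 SE; filled points passed the threshold of the fit. Rgs2 has filled points in 8 comparisons and Rgs3 in 3, all below 0, and the other 7 genes have open points only.

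Several of these calls were lost in fits that left out 1 array. Without any 1 of Runx2 replicate 1, Runx3 replicate 1 or Runx3 replicate 2, neither Rgs2 nor Rgs3 was called between Runx3 and Runx2, although the Rgs2 difference stayed between −0.63 and −0.74. Without Runx2 replicate 2 only Rgs2 was called there (−0.80), and Rgs3 differed by −0.60. Rgs3 was not called between Runx3 and Runx1 without either array of either line, with differences between −0.48 and −0.61. The interaction call of Rgs2 was lost in 11 of the 14 fits that left out 1 array and kept without vector 4-OHT replicate 2, Runx2 replicate 1 or Runx2 replicate 2. Fits without a Runx1 or Runx3 array were among the 11, although those arrays do not enter the term and left it at −0.96. Rgs12 passed the threshold against vector with 4-OHT without RUNX1-ER induced replicate 2, at 0.76.

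Other members of the family were taken from a list of 12 symbols, of which 10 had a probe set and 2 averaged above 5 log2 units. These were Rgs9, known from photoreceptors and striatal neurons, with 5.91 to 6.28, and Rgs20, a relative of Rgs17 and Rgs19. Rgs20 fell by 0.59 (SE 0.13, limma adjusted p = 0.0176) in Runx3 cells, where it averaged 5.36, against 5.95 in vector cells. It averaged 5.90 in Runx1 cells, from which Runx3 cells differed by −0.54 (SE 0.13, limma adjusted p = 0.0392). The first difference lost its call without vector replicate 2 (−0.53, limma adjusted p = 0.159). So it did without vector replicate 1 (−0.65, limma adjusted p = 0.0678) and without Runx3 replicate 1 (−0.43, limma adjusted p = 0.175). It was −0.33 with the 4-OHT vector arrays as the control and −0.32 as the mean of its probe sets, and neither passed the threshold. The second lost its call in 10 alternatives, with −0.57 and −0.51 without Runx1 replicate 1 or 2 and −0.38 without Runx3 replicate 1, and with the replicate block (limma adjusted p = 0.0521). The other probe sets of Rgs20 were dim and did not pass the threshold. None of the other 9 genes passed the threshold by this test in any of the 11 comparisons, which called from 0% to 7.83% of all genes.

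The rest of the pathway was described with lists of receptors, G protein subunits, effectors and other regulators, 107 measured genes with the other Rgs genes. In the Runx3 line 14 of the 107 passed the threshold (13.1%, 4 higher and 10 lower), beside the 7.83% of all genes. In the Runx1 line 4 passed (3.74%, 1 higher and 3 lower), beside 1.42% of all genes, and in the Runx2 line 4 (3.74%, 2 and 2), beside 2.13%. For RUNX1-ER induction 2 passed (1.87%, both higher), beside 1.41%, and for induced RUNX1-ER against vector with 4-OHT 2 (1.87%, 1 and 1), beside 2.92%. None passed by limma for 4-OHT in vector cells (0% of all genes), for induction beyond 4-OHT (0.478%) or for uninduced RUNX1-ER (0.0165%). Between lines, 3 passed for Runx2 against Runx1 (2.80%, 2 and 1), beside 1.18%. Runx3 cells differed from Runx1 cells in 10 (9.35%, 3 and 7), beside 5.25%, and from Runx2 cells in 9 (8.41%, 3 and 6), beside 2.64%. The lists were chosen with earlier results of these data known. Their shares therefore carry no test of their own, and nothing is read from them.

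The list of receptors coupled to G proteins had 26 measured genes, among them the atypical receptor Ackr3. Of these, 5 passed the threshold in the Runx3 line (1 higher and 4 lower), beside 7.83% of all genes. Ptgfr, the Gq-coupled receptor for prostaglandin F2α, had 5.04 and 4.76 log2 units in Runx3 cells, against 7.23 and 7.28 in vector cells. Its difference was −2.36 (SE 0.14, limma adjusted p = 1.99e-07). Ptgfr also fell in the Runx1 line, by 1.95 (SE 0.14, limma adjusted p = 5.79e-06), and differed by −1.74 in the Runx2 line (SE 0.14, limma adjusted p = 1.48e-05). Both Ptgfr and Rgs2, like Ackr3, were thus lower in all 3 lines, as gene-by-gene values that share the vector arrays. For RUNX1-ER induction Ptgfr did not pass the threshold, with 6.42 and 6.17 in induced and 6.69 and 6.60 in uninduced cells. Ackr3, an atypical chemokine receptor that binds Cxcl12 and signals through arrestins, had 6.49 and 6.42 in Runx3 cells, against 9.27 and 9.33 in vector cells. That was a difference of −2.85 (SE 0.12, limma adjusted p = 1.38e-08). It fell by 1.38 in the Runx1 line and by 1.18 in the Runx2 line (SE 0.12, limma adjusted p = 5e-05 and 0.000161). S1pr2, a receptor for sphingosine-1-phosphate, differed by −0.86 (SE 0.15, limma adjusted p = 0.00319) in the Runx3 line. S1pr3, its relative, was the fourth receptor to pass there, at −0.60 (SE 0.11, limma adjusted p = 0.00536), and it differed by −1.02 between Runx3 and Runx1 cells (limma adjusted p = 0.000137). The second S1pr2 probe set differed by −0.36 and did not pass.

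Ptger4, the Gs-coupled receptor for prostaglandin E2, went opposite ways in the lines. It averaged 7.64 in Runx3 cells and 5.70 in Runx1 cells, a difference of 1.94 (SE 0.18, limma adjusted p = 2.43e-05), with 6.77 in vector cells. Against vector it was 0.87 higher in the Runx3 line (SE 0.18, limma adjusted p = 0.00924) and lower in the Runx1 line by a difference of −1.07 (SE 0.18, limma adjusted p = 0.00823). The first was 0.65 and lost its call without vector replicate 2, as it did without Runx3 replicate 1, at 0.80. The second was −0.85 without vector replicate 1 and −0.88 without Runx1 replicate 2, and lost its call in both. After induction of RUNX1-ER it averaged 7.21, against 6.31 uninduced (difference 0.89, SE 0.18, limma adjusted p = 0.0277), a call lost without any 1 of those 4 arrays, with differences from 0.73 to 1.05. Beyond the 4-OHT difference in vector cells, the induction of Ptger4 was 0.84 (SE 0.25), which did not pass the threshold.

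None of the 15 measured alpha subunits passed the threshold in the Runx1 line, beside 1.42% of all genes, or in the Runx3 line, beside 7.83%. Gnao1, a Gi-type alpha subunit of neurons, passed it in the Runx2 line, where it averaged 5.28, against 4.75 in vector cells (limma adjusted p = 0.0128), a call lost without any 1 of those 4 arrays, with differences from 0.48 to 0.59, and at 0.26 as the mean of its probe sets. Gnao1 was dim on that probe set, at 4.88 log2 units over all arrays, and its other 2 did not pass. Of 16 beta and gamma subunits, 3 passed in the Runx3 line, beside 7.83% of all genes. Gng12, a gamma subunit, averaged 7.75 in Runx3 cells and 8.55 in vector cells, a difference of −0.81 (SE 0.10, limma adjusted p = 0.000283), and its second probe set also passed, at −0.54. Gnb4, a beta subunit, was 0.66 higher (SE 0.11, limma adjusted p = 0.00232), with its other probe sets not past the threshold. Gnb4 also passed in the Runx1 line (0.76), the Runx2 line (0.60) and induced RUNX1-ER cells against vector with 4-OHT (0.57). Each of these 3 calls was lost in some fit that left out 1 array. Gnb5, which pairs with the Rgs6, Rgs7, Rgs9 and Rgs11 proteins, fell by 0.49 in the Runx3 line (SE 0.10, limma adjusted p = 0.0105). That call was lost without any 1 Runx3 or vector array, with differences between −0.46 and −0.52, and at −0.25 as the mean of its probe sets.

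Of 21 effectors, 4 passed in the Runx3 line, beside 7.83% of all genes. None passed in the Runx1 or Runx2 line, beside 1.42% and 2.13% of all genes, and nothing is read from these counts. Prkca, the protein kinase C alpha that acts downstream of Gq, averaged 7.20 in Runx3 cells and 8.01 in vector cells, a difference of −0.80 (SE 0.12, limma adjusted p = 0.000843). Its other 2 probe sets passed as well. Prkcd, a protein kinase C of the same pathway, fell by 0.64 (SE 0.12, limma adjusted p = 0.0046), and Plcb4, a Gq-activated phospholipase C, was 0.69 higher (SE 0.10, limma adjusted p = 0.00102). Prkcd lost its call without vector replicate 2 (−0.59) or Runx3 replicate 1 (−0.53), and Plcb4 when its probe sets were averaged (0.21). Plcb4 was dim on its brightest probe set, at 4.41 log2 units over all arrays, and its other 4 did not pass. Adcy7, an adenylyl cyclase, averaged 4.75 in Runx3 cells and 5.61 in vector cells, a difference of −0.86 (SE 0.10, limma adjusted p = 0.000164), with neither of its other probe sets past the threshold. Of 19 receptor kinases, arrestins and alpha subunit regulators, 1 passed in the Runx3 line, beside 7.83% of all genes. This was Rap1gap, a GTPase activator for Rap1, which was 0.77 higher (SE 0.11, limma adjusted p = 0.000723). Grk5, a receptor kinase, was 0.61 higher after RUNX1-ER induction (SE 0.12, limma adjusted p = 0.0285). That call was lost without any 1 array of the RUNX1-ER line, with differences from 0.55 to 0.66. It was also lost without either array of the vector cells without 4-OHT, which do not enter this difference and leave it at 0.61. In vector cells Grk5 averaged 5.71 with 4-OHT and 5.34 without it, with no overlap of arrays, a difference of 0.36 (SE 0.12) that did not pass. The induction of Grk5 beyond 4-OHT was 0.24 (SE 0.17) and did not pass either.

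**Figure D5:**
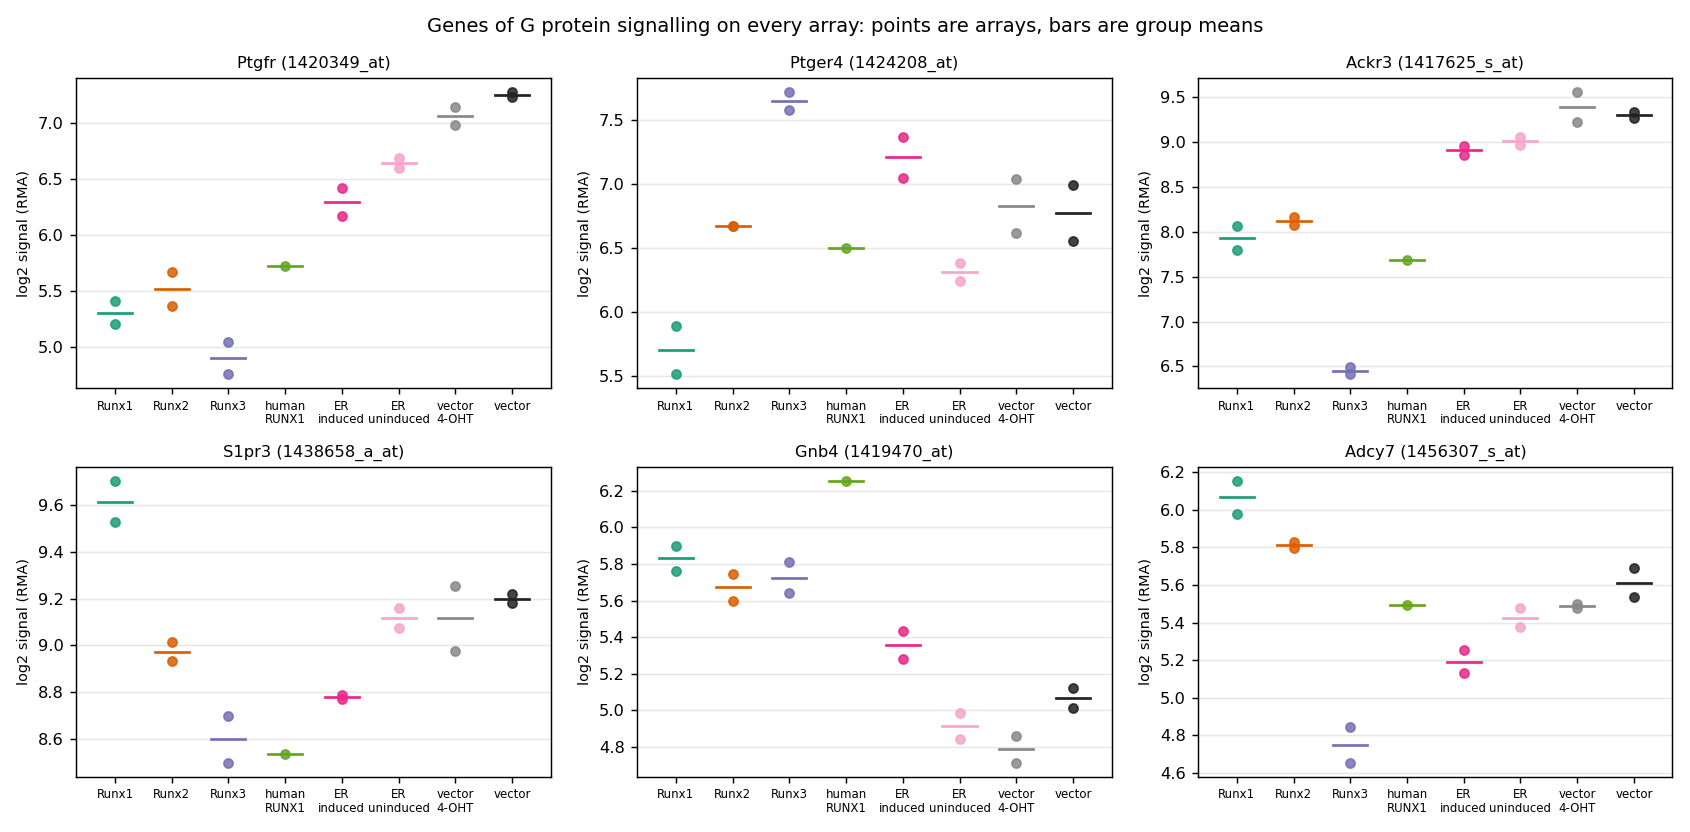
Log2 signal (RMA) of Ptgfr, Ptger4, Ackr3, S1pr3, Gnb4 and Adcy7 (brightest probe set of each) on each of the 15 arrays, by group; points are arrays, bars are group means, and each panel has its own scale that does not start at 0. The Runx3 arrays are lowest for Ptgfr, Ackr3 and Adcy7 and highest for Ptger4, where the Runx1 arrays are lowest.

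The genes whose pattern over the 15 arrays was most like that of Rgs2 were Id2 (Pearson r = 0.982), Zfp36l2 (0.969) and Fdx1 (0.962), among 719 genes whose group means spanned at least 1 log2 unit. The points share the arrays and the groups, and no p is given. Id2, an inhibitor of helix-loop-helix transcription factors, averaged 6.38 in Runx3 cells and 9.09 in vector cells, and 7.58 in induced and 8.44 in uninduced RUNX1-ER cells. Zfp36l2, an RNA-binding protein that promotes mRNA decay, averaged 9.39 in Runx3 cells and 10.32 in vector cells. Fdx1, a mitochondrial electron carrier, averaged 8.69 in Runx3 cells and 10.08 in vector cells. Of the 9 genes, Rgs2 was the only one whose group means spanned 1 log2 unit, with 2.49. The next were Rgs17 with 0.65, which is dim, and Rgs3 with 0.65. The Rgs17 span ran from 3.60 in vector cells to 2.94 on the single human RUNX1 array. Its lowest other group mean was 3.34, in Runx3 cells.

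The array medians lay between 3.69 and 3.75 log2 units, 10 of the 14 arrays with a replicate were closest to it, and no array was identical to another. All 10 fibroblast markers were bright, with means from 7.94 to 13.17. In the Runx3 line 6 of them passed the threshold, beside 7.83% of all genes: Col1a1, Col5a1 and Pdgfrb were higher, and Col3a1, Pdgfra and Thy1 lower. The differences ran from −1.38 for Pdgfra to 2.28 for Col5a1. Between Runx3 and Runx1 cells 5 passed (3 higher and 2 lower), beside 5.25%. Of 10 pericyte and smooth muscle markers 3 were above 5 log2 units, Acta2, Cspg4 and Des. The pericyte genes Kcnj8, Abcc9, Higd1b and Notch3, like Rgs5, were dim. The summed linear signal of that list was 2703 to 2790 in Runx3 cells and 1717 to 1779 in vector cells. Most of it was Acta2, with a mean linear signal of 2568 in Runx3 cells and 1580 in vector cells, and Acta2 was the 1 of the 10 that passed there. The 5 epithelial markers summed to 178 to 203 in Runx3 cells and 88.3 to 88.5 in vector cells, with 1 of the 5, Epcam, above 5 log2 units as the mean of all arrays. Of that list Krt8 and Cdh1 passed in the Runx3 line. Krt8 carried most of the shift, with a mean linear signal of 107 in Runx3 cells and 16.0 in vector cells. The part of all these marker differences in the Rgs2 and Rgs3 values was not tested. The 5 measured leukocyte markers and 5 endothelial markers were all dim.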

How the data were processed

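Total RNA was measured on 15 arrays in 8 groups, taken from the sample titles. The authors deposited log2 values. Per the labels' protocols, GCOS produced the raw data and the affy module of the FunAlyse pipeline applied RMA; for versions and the probe-set definition, the sources used here name none. RMA gives all arrays 1 distribution, which hides any change in total RNA. The number of arrays limits the precision.

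Probe sets with 1 symbol (34945) were named from the platform annotation, and 932 had several symbols, 9160 none and 64 were controls. All 26 probe sets of the 9 genes kept their symbol through the Entrez identifier. limma 3.58.1 (R 4.3.3) fitted 1 coefficient per group to all 45037 non-control probe sets (lmFit, eBayes, residual degrees of freedom 7, prior 6.21). Benjamini-Hochberg adjustment of its two-sided p-values ran over these probe sets, with a threshold of 0.05. A gene was called by its brightest probe set. A probe set with a mean of at most 5 was termed dim. Steps were tested on simulated data.

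The 9 genes, the pathway and marker lists and the tests were chosen with earlier results of these data known. The text names all 9 genes, and of each list and comparison at most 3 genes each way with the largest change past the threshold and no overlap of arrays. From these, it describes mainly those for the Runx3 line, a choice made after their values were seen, as was the naming of S1pr3 against vector. It also names other Rgs genes past the threshold and the 3 genes most like Rgs2. Same-numbered arrays were not paired (see the dependence on processing). Alternatives were averaging a gene's probe sets, 1 probe set per gene in the fit, leaving out dim probe sets, an intensity trend with a robust prior, a second quantile normalization, a replicate block, other vector controls and leaving out each of the 14 arrays with a replicate. The human RUNX1 array was in every fit.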

Additional observations from a re-analysis of the deposited data

Results flagged for a closer look

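Rgs2 is listed here because its differences with 4-OHT were far apart in RUNX1-ER and vector cells. The difference of induced from uninduced RUNX1-ER cells was −0.97 log2 units, and that of vector cells with 4-OHT from vector cells without it was −0.01. The gap between them, the interaction term of the fit over all 15 arrays, was −0.96 (SE 0.18). Both induced arrays lay below both uninduced arrays, while the vector arrays with and without 4-OHT overlapped. The term lay past the threshold of the fit. Over the 14 fits that left out 1 array it ran from −0.75 to −1.16, and 11 of them no longer passed. The fit with −1.16, without vector 4-OHT replicate 2, still passed. Since Rgs2 was chosen for its values on these arrays, these are a description and nothing is read from the threshold.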

How the results depend on the processing

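The called Rgs2 and Rgs3 differences kept their signs in the alternatives run. Differences near 0 that passed no threshold could change sign without 1 array: Rgs2 for 4-OHT in vector cells ran from −0.22 to 0.20, Rgs12 for induction from −0.22 to 0.41 and Rgs3 for Runx1 against vector from −0.22 to 0.02. In this paragraph the number of all genes called comes first and the value reported above is given in brackets. Leaving out dim probe sets gave 390 for Runx1 against vector [259], 584 for Runx2 [387], 457 for induction [256], 166 for induction beyond 4-OHT [87], 10 for uninduced RUNX1-ER [3], 994 for induced RUNX1-ER against vector with 4-OHT [532], 327 for Runx2 against Runx1 [215] and 850 for Runx3 against Runx2 [480]. An intensity trend with a robust prior gave 430, 625, 530, 243, 67, 941, 382 and 773 for the same 8 comparisons. Averaging probe sets gave 137 for induction beyond 4-OHT and 11 for uninduced RUNX1-ER, and 1 probe set per gene gave 8 for the second. For Runx1, vector with 4-OHT as the control gave 395 and all 4 vector arrays 429.

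Of the 9 genes, averaging probe sets called 1, Rgs2, in the Runx3 line and between Runx3 and Runx1 or Runx2 [2 each]. It called 2, Rgs2 and Rgs10, for induction and for induced RUNX1-ER against vector with 4-OHT [1 each], as did leaving out dim probe sets. One probe set per gene called 2 in the second of these. The intensity trend called 1, Rgs2, for uninduced RUNX1-ER [0]. Of the 107 pathway genes, leaving out dim probe sets called 7 for Runx1 [4], 4 for induction [2], 2 for induction beyond 4-OHT [0] and 6 for induced RUNX1-ER against vector with 4-OHT [2]. The trend called 7 for Runx1, 1 for induction beyond 4-OHT and 6 for the last of these, and all 4 vector arrays 8 for Runx1. For the last, averaging called 4, 1 probe set per gene 6 and a second quantile normalization 1. One probe set per gene called 1 for induction beyond 4-OHT. The causes were not tested.

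Leaving out 1 array gave 112 to 266 genes for Runx1, 163 to 390 for Runx2, 749 to 1434 for Runx3, 98 to 261 for induction, 0 to 2 for 4-OHT in vector cells, 44 to 96 for induction beyond 4-OHT, 0 to 52 for uninduced RUNX1-ER, 195 to 548 for induced RUNX1-ER against vector with 4-OHT, 71 to 211 for Runx2 against Runx1, 486 to 972 for Runx3 against Runx1 and 191 to 492 for Runx3 against Runx2. Of the 9 genes it called 1 to 2 in the Runx3 line, 1 to 2 for Runx3 against Runx1, 0 to 2 for Runx3 against Runx2, 0 to 1 for induction beyond 4-OHT, 1 to 2 for induced RUNX1-ER against vector with 4-OHT and the reported number in the other 6 comparisons. Of the pathway genes it called 2 to 5 for Runx1, 2 to 4 for Runx2, 9 to 14 for Runx3, 0 to 2 for induction, 0 to 1 for induction beyond 4-OHT, 0 to 4 for induced RUNX1-ER against vector with 4-OHT, 1 to 3, 6 to 11 and 3 to 10 between the lines. Of 47 named calls of pathway genes, 27 were lost in some alternative.

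The numbers do not pair the arrays: the correlation of replicate 1 minus replicate 2 between 21 pairs of groups ran from −0.109 to 0.144 (median 0.0259). With the replicate block, 250 genes were called for Runx1, 359 for Runx2, 1361 for Runx3 and 237 for induction, with the same number of the 9 genes called in all 11 comparisons. The arrays of dim genes limit what could be seen: a change in Rgs4, Rgs5, Rgs12, Rgs16 or Rgs17 may be compressed.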
